A study of Mus musculus with 8 samples.

Results

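The regions described here are 2192 stretches of the mouse genome where Smad4 peaks were called in wild-type (WT) T cells. They lie outside protein-coding genes but close to them, and were chosen by called peaks. Peaks of the 2 WT libraries that shared at least 1 bp were merged, and a merged region was kept when it held a peak of both WT lists and met no peak of either Smad4 knockout (KO) list. The region then had to be autosomal, with its centre outside every protein-coding gene and over 1 kb but at most 20 kb from the nearest gene end. Of 16501 regions called in both WT lists, 15882 met no KO peak (96.2% of all reproducible WT regions, and likewise 96.2% on the autosomes), 15635 of them on autosomes. The members were 14.02% of those 15635 regions, and 2192 of the 4384 that lay outside genes and over 1 kb from a gene end.

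The samples were CD4+ T cells of C57BL/6 mice, prepared from lymph nodes and spleen. In every group the cells had been activated, cultured with interleukin 6 (IL6) plus a TGFbR inhibitor, which blocks the receptor for TGF-β, and taken at 12 h. The WT group had 2 female libraries. The KO group (CD4cre;Smad4fl/fl) had 2 libraries, replicate 1 from males and females pooled and replicate 2 male, so that sex and genotype differed together and cannot be told apart. In this model the CD4cre transgene removes floxed Smad4 in T cells that have reached the double-positive stage of the thymus, so the deletion covers CD4+ and CD8+ T cells. Its extent in other cells is not given in the sources used here. Whether the libraries of a group came from separate animals is not given in the sources used here, and the spread between them may be technical. Chromatin immunoprecipitation used a Smad4 antibody. Inputs (4 samples) were not analysed here.

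Each library came as a list of peak positions without a height or score, so peak width is the only measure of size. Where a member held more than 1 peak of a library, the width given for that library is their sum. This was so for 13 members in WT replicate 1 and 54 in WT replicate 2. The WT lists held 27120 and 19792 peaks and the KO lists 564 and 424 peaks. The number of reads behind each list is not known, so the precision of any single peak is unknown too, and a region without a KO peak is a region where none was called. Peaks measure no expression, so only positions could be set beside the labelled cell type. Of the 23 genes of a T cell identity list, 14 were the nearest gene of a member. The B cell list had 1 of 10 and the myeloid list 1 of 12, beside 7.91% of all autosomal protein-coding genes. The lists were chosen with earlier results of these data known, so these counts are no test of the label.

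Smad4 is the SMAD protein shared by the TGF-β and BMP branches of the family. Receptors of these cytokines phosphorylate receptor SMADs, which join Smad4, enter the nucleus and bind short CAGAC-type or GC-rich elements, usually beside other DNA-binding factors such as AP-1, ETS, RUNX or STAT proteins. In T cells this pathway is known for its part in regulatory T cell and Th17 differentiation, and SKI and SKIL are nuclear proteins that hold SMAD target genes back. Intergenic sites close to a gene are where enhancers are often found, and they also hold promoters of non-coding genes.

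The broadest member covered a microRNA gene, so the mature microRNAs of the best known genes inside members are shown first. They are examples from few regions: 6 of the 2192 members met a microRNA gene. These held 8 of the 114 microRNA genes in the location class (7.02%). Capitals mark the seed, bases 2 to 8, and the sequences are those of RefSeq on GRCm38.p6, the assembly that mm10 names.
mmu-miR-142a-5p: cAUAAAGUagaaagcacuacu
mmu-miR-142a-3p: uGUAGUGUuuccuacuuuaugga
mmu-miR-132-3p: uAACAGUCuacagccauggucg
mmu-miR-212-3p: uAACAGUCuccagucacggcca
mmu-let-7i-5p: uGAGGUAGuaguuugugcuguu
The 3p arms of miR-132 and miR-212 share the seed AACAGUC, and both genes lie in the same member, chr11:75172166-75174219, 2.75 kb from Ovca2.

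Members also covered promoters of long non-coding RNA (lncRNA) genes. RefSeq promoter windows run from 250 bases before a start to 50 bases after it. Of the windows in that table, 68 lay wholly inside a member, 65 of them of lncRNA genes and 3 of protein-coding genes (Nab2, Dusp6 and Irf2bp2), a split that the rule largely fixed by keeping centres over 1 kb from coding genes only. The windows below are shown because their members lie beside Cd28, Zbtb7b, Tgfbr2 and the miR-155 gene. They were picked after their neighbours were known. Capitals mark the SMAD motifs CAGAC and GGCGC on either strand.
2310016D23Rik, plus strand, chr1:60778211-60778510: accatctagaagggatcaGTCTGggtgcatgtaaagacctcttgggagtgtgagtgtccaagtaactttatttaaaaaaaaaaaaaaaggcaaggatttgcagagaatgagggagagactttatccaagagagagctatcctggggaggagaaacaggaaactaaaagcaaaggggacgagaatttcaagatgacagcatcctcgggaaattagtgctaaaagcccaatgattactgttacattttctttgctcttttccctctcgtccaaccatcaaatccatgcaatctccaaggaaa
Gm15417, plus strand, chr3:89394040-89394339: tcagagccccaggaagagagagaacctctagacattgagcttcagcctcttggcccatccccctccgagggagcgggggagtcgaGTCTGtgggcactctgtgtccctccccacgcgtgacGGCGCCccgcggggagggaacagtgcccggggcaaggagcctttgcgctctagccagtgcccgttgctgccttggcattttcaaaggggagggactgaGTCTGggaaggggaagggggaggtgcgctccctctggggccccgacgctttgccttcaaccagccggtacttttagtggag
Gm4668, plus strand, chr9:116188930-116189229: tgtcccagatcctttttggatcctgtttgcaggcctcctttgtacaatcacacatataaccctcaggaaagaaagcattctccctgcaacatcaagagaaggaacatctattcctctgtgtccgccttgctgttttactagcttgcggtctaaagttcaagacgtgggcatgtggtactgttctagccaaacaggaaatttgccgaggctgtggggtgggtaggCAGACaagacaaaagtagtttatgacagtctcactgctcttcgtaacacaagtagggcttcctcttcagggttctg
Mir155hg, plus strand, chr16:84712773-84713072: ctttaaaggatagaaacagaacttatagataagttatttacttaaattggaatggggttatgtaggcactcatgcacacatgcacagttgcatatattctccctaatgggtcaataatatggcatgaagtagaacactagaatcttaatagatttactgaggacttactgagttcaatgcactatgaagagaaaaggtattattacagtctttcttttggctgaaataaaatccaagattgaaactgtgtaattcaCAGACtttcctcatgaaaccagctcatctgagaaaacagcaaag
Each of the 4 windows holds at least 1 CAGAC, and the Gm15417 window also holds GGCGC. Such a match describes letters and not a bound site.

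Over the 65 lncRNA windows inside members, CAGAC was present on either strand in 56.9% (95% exact Clopper-Pearson interval 44.0 to 69.2), beside 51.8% of all 11311 autosomal lncRNA windows and 48.0% of the 492 lncRNA windows inside WT-only regions elsewhere. The GC-rich element GGCGC was present in 52.3% (39.5 to 64.9), beside 18.9% of all lncRNA windows and 74.0% (69.9 to 77.8) of those in the other WT-only regions. These groups also differed in base composition: the median GC content was 54.3% inside members, 66.5% inside the other WT-only regions and 48.3% over all lncRNA windows, and its part in the GGCGC shares was not tested. The palindrome GTCTAGAC was in 0 of the 65 windows, and in 0.194% of all lncRNA windows. Among partner motifs, the AP-1 element TGANTCA was in 13.8% of the windows inside members (6.53 to 24.7) and 9.25% of all lncRNA windows, and the STAT element TTCNNNGAA in 12.3% (5.47 to 22.8) and 9.36%. The RUNX element TGTGGTT was in 7.69% and 6.30%, the ETS element CAGGAAG in 13.8% and 14.8%, and the NF-κB element GGANTTCC in 6.15% and 4.18%. With 65 windows the intervals for CAGAC and for every partner motif include the share over all lncRNA windows. In the 492 windows of the other WT-only regions, AP-1 stood at 6.91%, STAT at 5.08%, RUNX at 4.47%, ETS at 14.6% and NF-κB at 5.49%. Of these only the STAT share lies outside the interval for members, by counting error alone and over 5 motifs. Motifs were counted whether or not they overlapped one another. Some of the 65 windows share bases, as do those of 1110038B12Rik, Gm38424, Gm26740 and Gm33315. Their shared sequence was counted more than once, while the intervals treat all windows as separate.

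Most members were short. The median region was 578 bp, the 10th and 90th percentiles were 364 and 1220 bp, and all members together covered 1.56 Mb. The median summed peak width in a member was 532 bp in WT replicate 1 and 434 bp in WT replicate 2. The summed width was larger in replicate 1 in 1501 members (68.5%) and in replicate 2 in 674, with a median ratio of 1.16. Across the 2192 members the 2 widths had a Spearman correlation of 0.709, given as a description, since every point comes from the same pair of libraries. The centres of the widest peaks of the 2 libraries were a median of 37.0 bp apart, and 81.0% of members had them within 100 bp. The rule partly fixed this closeness, since members were built from overlapping peaks of the 2 libraries. The smallest width, 240 bp in replicate 1 and 242 bp in replicate 2, is the floor of each list. It was the only peak in 7.62% of members in replicate 1 and 15.2% in replicate 2, and 84 members were at the floor in both.

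**Figure D1:**
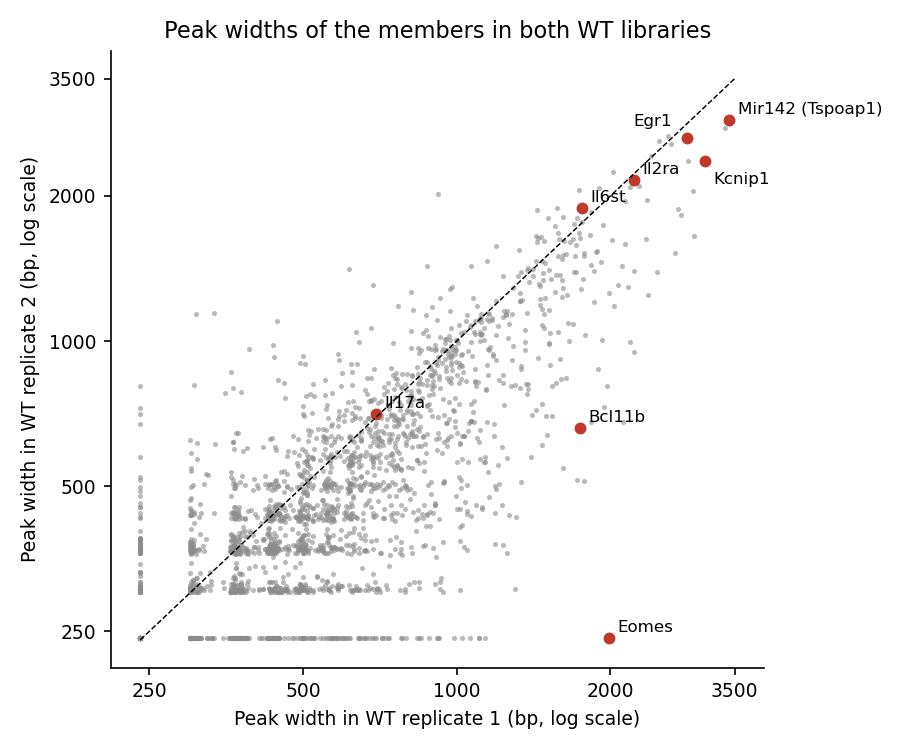
Summed peak width (bp, log scales) of each of the 2192 members in WT replicate 1 (x axis) and WT replicate 2 (y axis), 1 point per member, with the dashed line at equal width and named members in red. Most points lie below the line, where replicate 1 is wider (1501 members). The rows of points at 240 and 242 bp are the floors of the lists, and the Eomes member, at 1988 and 242 bp, stands far from the line.

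Beside the other WT-only autosomal regions, the members had the lowest median width in each WT library. Regions at gene ends, which have their centre within 1 kb of an end, were widest, with medians of 666 bp in replicate 1 and 588 bp in replicate 2. The medians inside genes were 560 and 444 bp, those 20 to 100 kb from a gene 560 and 440 bp, and those farther out 557 and 438 bp, against 532 and 434 bp in members. Leaving out gene ends, no class median was more than 28 bp from that of the members in replicate 1 or 10 bp in replicate 2, while the medians of the 2 libraries differed by at least 98 bp in each of these classes. Only the difference from gene ends exceeded the spread between libraries.

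The broadest member, chr11:87754282-87757747, had peaks of 3420 bp in WT replicate 1 and 2868 bp in replicate 2. It holds Mir142 and its antisense partner Mir142b, which encode a microRNA abundant in blood cells, and lies 2.18 kb from Tspoap1. A further 3 members lie on the far side of Mir142 from Tspoap1, and KO replicate 1 had a called peak 1.64 kb from the broadest of these regions, inside Tspoap1. The next broadest lay near Ssbp4, at 3346 and 2772 bp. The member 5.83 kb from Egr1, an immediate-early zinc finger factor, had peaks of 2830 and 2632 bp. The fifth, chr10:127666614-127669273, covers the start of Nab2, a co-repressor of EGR proteins, at 2594 and 2660 bp, with its centre 1.24 kb from the gene. It also covers the start of the lncRNA gene 1700012D01Rik. Stat6, the interleukin 4 signalling factor whose gene overlaps Nab2 at its other end, was not the nearest gene of any member.

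Zfp36l2, which encodes an RNA-binding protein that speeds mRNA decay, had a member at 2840 and 2368 bp. The member beside Dusp6, a phosphatase that switches off ERK, had peaks of 2486 and 2604 bp. Ifngr2, a chain of the interferon-γ receptor, had 2398 and 2418 bp at 13.1 kb. Replicate 2 was the wider at Dusp6 and Ifngr2 and replicate 1 at Zfp36l2. The member nearest to Il2ra, the α chain of the interleukin 2 receptor, had 2224 and 2158 bp and lay 7.58 kb upstream. A KO peak was called 6.09 kb from it. Irf2bp2, a co-repressor of IRF2, had 2714 and 1878 bp, and its relative Irf2bpl had 2362 and 1964 bp.

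For several of the broadest members the second flanking gene is the better known in T cells. The member 16.6 kb from Kcnip1 (3066 and 2360 bp) lies 37.0 kb from Lcp2, which encodes the T cell receptor adaptor SLP-76. The member near Prkci (2908 and 2046 bp) lies 37.4 kb from Skil, with a KO peak 2.13 kb away. The one near Hook2 (2750 and 1822 bp) lies 6.73 kb from Junb, an AP-1 subunit. The one near Adamtsl4 (2916 and 1654 bp) lies 10.6 kb from Mcl1, a survival factor of the BCL2 family. The nearest gene is therefore a rule of naming and no sign of a target. Replicate 1 was the wider in each of these 4 members. The rest of the 20 lay near Scd2 (2628 and 2566 bp), Tex44, Vps54, Kremen1, Serpinb6b and Zfp692, with widths from 2026 to 2678 bp in replicate 1 and from 1520 to 2566 bp in replicate 2.

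**Figure D2:**
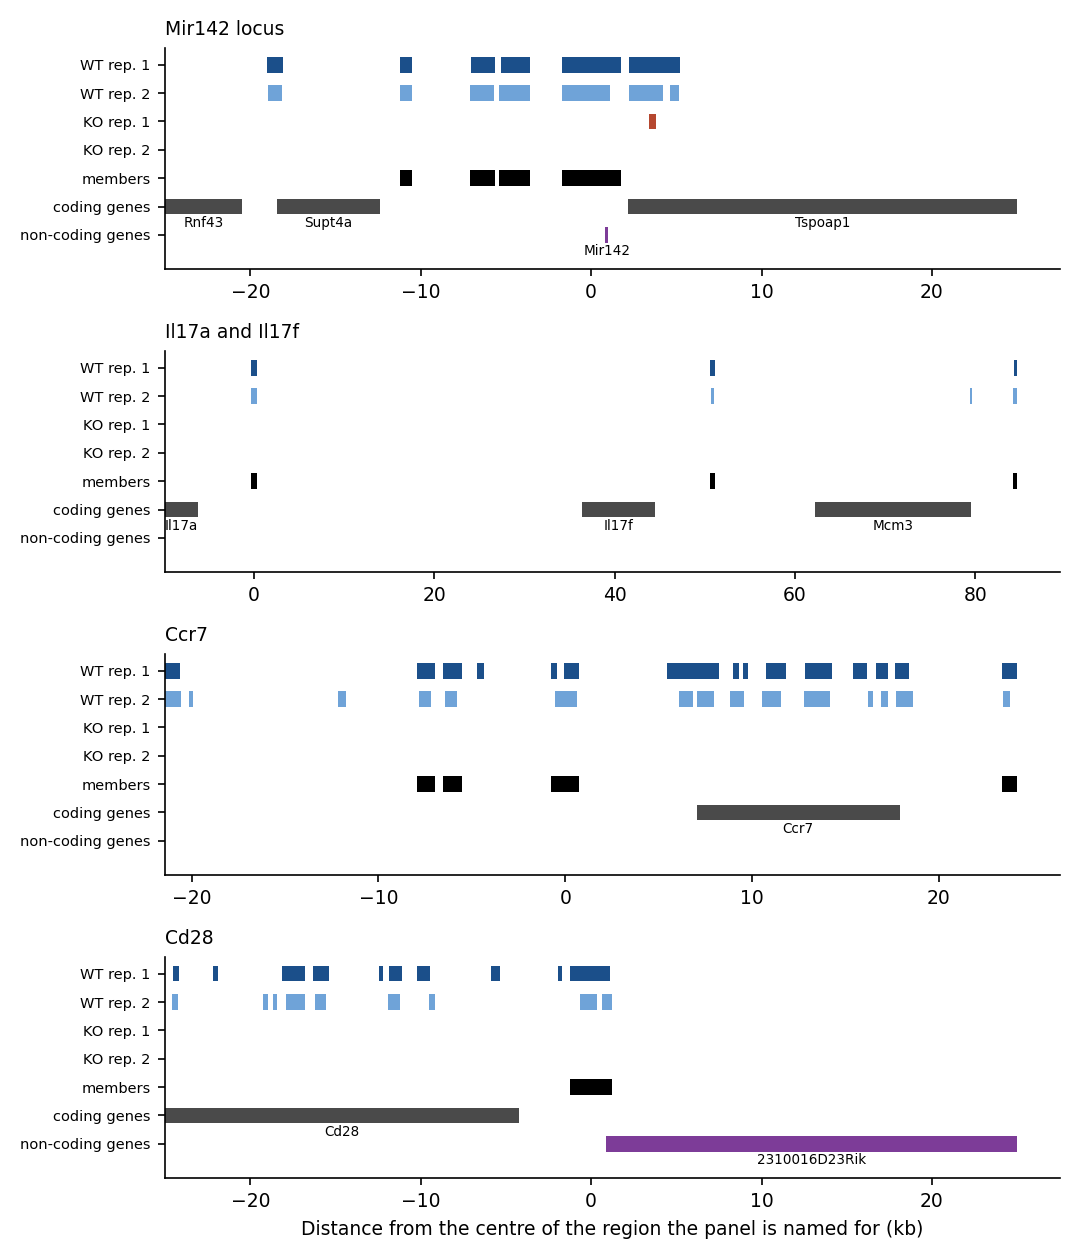
Called peaks of the 4 libraries, members, protein-coding genes and non-coding (lncRNA and microRNA) genes around 4 members, with distance from the centre of the member in kb on the x axis and 1 row per library or feature. In all 4 panels the members hold peaks of both WT libraries, and the one KO peak drawn, of KO replicate 1, lies inside Tspoap1, 1.64 kb from the Mir142 region. In the second panel 0 kb is the member beside Il17a.

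Genes of the TGF-β and SMAD pathway were taken from a list of 30 autosomal genes, of which 13 were the nearest gene of a member, with 19 members between them, and 7 were when only the wider part of the WT-only regions was counted. Over all 20560 autosomal protein-coding genes, 7.91% were nearest to a member, which is the share to set beside the main count of each list. Counts under other rules have other shares beside them. In the wider part 732 of the 20560 genes were nearest to a member, and without WT replicate 2 it was 2578. With members within 2 kb left out it was 1433. When non-coding genes could also be nearest, it was 1828 of 46714 genes. The lists were chosen with earlier results of these data known. Among receptors, Bmpr2, the type II receptor for BMPs, had a member of 1832 and 1854 bp at 1.03 kb. Tgfbr2, the type II receptor for TGF-β, had 2 members, the broader at 1436 and 1604 bp and 14.0 kb upstream. The Tgfbr1 member was narrower, at 508 and 302 bp. The ligand gene Tgfb1 had a member of 736 and 558 bp, 2.70 kb downstream. Among the SMADs and their inhibitors, Smad7, the inhibitory SMAD, had 3 members, the broadest at 1066 and 1430 bp. Skil had 2, the broader at 1596 and 916 bp, and Ski had 2, the broader at 784 and 704 bp and 1.01 kb upstream. The Smad3 member had 330 bp and, at the floor of the list, 242 bp, and the one nearest to Smad4, 11.6 kb from the gene, was at the floor in both (240 and 242 bp). Among classical targets, Id2, a dominant-negative helix-loop-helix factor, had 1192 and 1574 bp, while Id1 (426 and 496 bp) and Id3 (490 and 428 bp) had narrower peaks in both libraries.

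Of the 16 autosomal genes of the IL-6 and STAT3 list, 11 were nearest to a member, among receptors, kinases and feedback inhibitors alike, and 6 were in the wider part of the regions. Il6st, which encodes gp130, the signalling chain of the interleukin 6 receptor, had 3 members, the broadest at 1758 and 1886 bp and 4.90 kb upstream. Il6ra, the ligand-binding chain, had 1 of 586 and 688 bp. Of the SOCS inhibitors, Socs1 had 2 members, the broader at 890 and 876 bp, and Socs3 had 2, the broader at 450 and 428 bp. Stat3 itself was not the nearest gene of a member. Among the broadest members of the 11 genes, only that of Il6st was over 1000 bp in either library.

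The Th17 list had 8 of 17 genes nearest to a member, and 5 in the wider part of the regions. The signature cytokine genes Il17a and Il17f had 1 each: chr1:20740385-20741111, 6.25 kb downstream of Il17a, with peaks of 694 and 706 bp, and chr1:20791380-20791907, 6.37 kb upstream of Il17f, with peaks of 528 and 368 bp. The Il21 gene, which encodes a cytokine that Th17 and follicular helper cells make, had 4 members, the broadest at 896 and 796 bp. Nfkbiz, a nuclear IκB protein, had 642 and 726 bp, and Hif1a, the oxygen-responsive factor, had 740 and 386 bp. In replicate 1 the broadest member of each of the 8 genes was between 528 and 896 bp.

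A WT-only region within 1 kb of an end or inside was found at 22 of 23 T cell identity genes and 25 of 26 activation genes. Over all autosomal protein-coding genes this share was 37.0%. Genes of T cell identity and activation were also more often nearest to a member than the 7.91% over all autosomal protein-coding genes. In the identity list 14 of 23 were, and 7 when non-coding genes could also be the nearest gene. The broadest were at Cd28, the main co-stimulatory receptor, with 2346 and 1632 bp, Zbtb7b, the factor that sets the CD4 lineage, at 2370 and 1246 bp, Cd5 at 1594 and 1368 bp, and Ets1 at 1516 and 986 bp. In these 4 the summed width was larger in replicate 1. The member nearest to Cd4, chr6:124891820-124892334, had 506 and 418 bp and lay 3.83 kb from the gene. In the activation list 18 of 26 were: besides Egr1, the broadest were at Myc (1764 and 1344 bp), Nfkb1 (1460 and 1642 bp) and Fosl2, a FOS-family AP-1 subunit (1692 and 1086 bp). The Il2 gene had 2 members, the broader at 542 and 440 bp and 1.57 kb upstream, with a KO peak 523 bp from it. It is 1 of 7 members with a KO peak within 1 kb. The member 12.5 kb from Jun (362 and 314 bp) is another.

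Among genes that other T helper subsets use, the regulatory T cell list had 6 of 13 genes nearest to a member (3 when non-coding genes could also be nearest), led after Il2ra by Tnfrsf18 (GITR; 1568 and 1372 bp), Ctla4 (1526 and 1038 bp), an inhibitory receptor, and Tnfrsf9 (854 and 816 bp). The Th1 list had 4 of 12, but 1 when non-coding genes could be nearest and 8 without WT replicate 2. Of these the Eomes member, chr9:118488189-118490176, was 1988 bp in replicate 1 and 242 bp, the floor, in replicate 2, the most uneven pair of widths among all members by ratio. The Irf1 member (1034 and 1044 bp) holds Mir7671, the Ifng member had 1014 and 412 bp, and the Gzmb member 306 and 242 bp. The Th2 list had 5 of 10, with Nfil3 (1264 and 436 bp), Ccr8 (812 and 768 bp), Il4ra (736 and 626 bp) and Il1rl1 (684 and 572 bp).

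Genes of migration had 8 of 13 nearest to a member, and 23 members in all. Ccr7, the receptor that holds T cells in lymph nodes, had 6 members. Their summed peak widths ran from 446 to 1094 bp in replicate 1 and from 242 to 1180 bp in replicate 2. S1pr1, the receptor for exit from lymph nodes, had 3 (broadest 1404 and 704 bp), Ccr9 3 (662 and 792 bp) and Cxcr5 3 (776 and 540 bp). Genes of feedback and mRNA decay had 10 of 15 (6 when members within 2 kb of the gene were left out), led after Zfp36l2 and Dusp6 by Btg1 (6 members, broadest 1578 and 1498 bp) and Btg2 (3 members, broadest 1116 and 1136 bp), which encode antiproliferative proteins. Survival and death genes had 4 of 12: Fasl (2012 and 1624 bp), Mcl1 (6 members, broadest 1236 and 1156 bp), Pmaip1 (566 and 610 bp) and Fas (564 and 442 bp). Cell cycle genes had 4 of 10, and 0 when non-coding genes could be nearest: Ccnd2 (1454 and 1300 bp), Ccne1 (1472 and 1164 bp), Cdkn1b (940 and 758 bp) and Cdkn1a (804 and 548 bp).

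Lists of genes of other cell types gave counts near the share over all genes. The B cell list had 1 of 10 (Vpreb3, 452 and 456 bp), the myeloid list 1 of 12 (Fcgr1, 1042 and 1098 bp), the neuron list 1 of 9 (Slc17a7, 308 and 362 bp) and the hepatocyte list 0 of 10, for which the upper limit of the exact 95% interval was 30.9%. In all, 108 of the 242 genes of the 16 lists were nearest to a member. The split between these lists and those of T cells was not particular to the members. A WT-only region at an end or inside was found at 21 of 30 TGF-β and SMAD genes. The same held for 2 of 10 B cell genes and 0 of 12 myeloid genes. Lists were not matched to other genes for the length of the flanking gaps, and no set test was made.

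**Figure D3:**
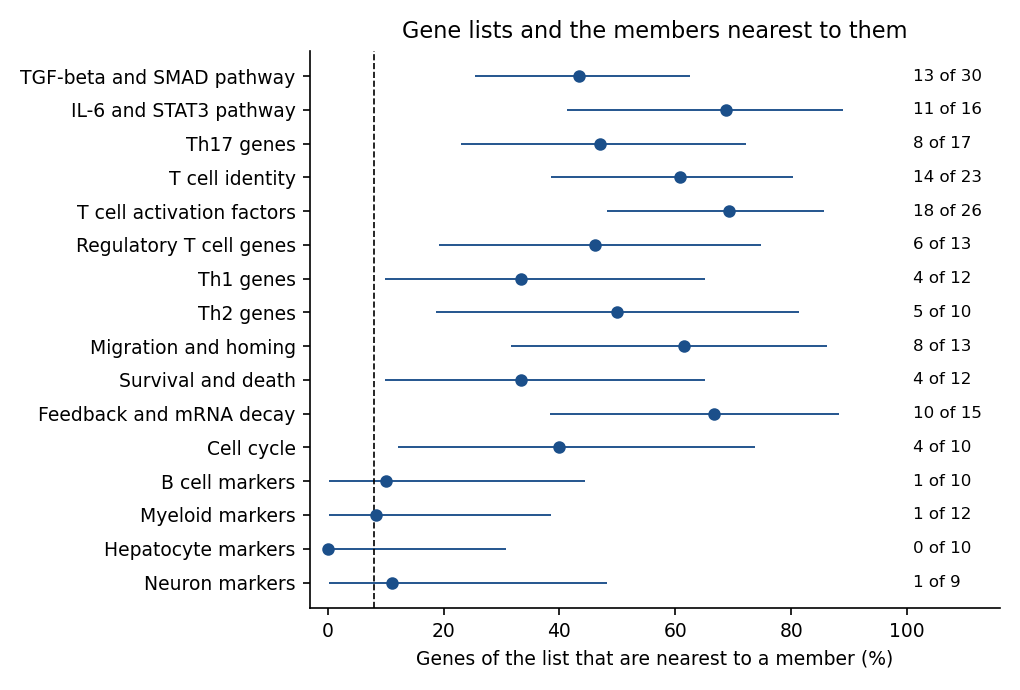
Percentage of the autosomal genes of each list that were the nearest protein-coding gene of a member (points), with exact 95% Clopper-Pearson intervals for counting error only and the counts at the right. The dashed line marks the 7.91% of all autosomal protein-coding genes. The 12 T cell and signalling lists lie between 33.3% and 69.2%, and the 4 lists of other cell types between 0 and 11.1%.

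The members were spread over 1627 nearest genes. Of these, 1226 had 1 member, 286 had 2, 84 had 3 and 31 had 4 or more. With 6 members each, Btg1, Ccr7, Grap, H60b, Mcl1 and Prkcq had the most. Grap encodes a GRB2-related adaptor, H60b a ligand of the receptor NKG2D, and Prkcq the kinase PKC-θ of the T cell receptor pathway. Their broadest members had 1612 and 1506 bp (Grap), 974 and 976 bp (H60b) and 1156 and 1136 bp (Prkcq). Cd2, Cd69, Ier5, Irf2bp2, Lcp2 and Lrrc8c had 5 each. Members also lay close to other WT-only regions of any location: the median distance to the next one was 6.6 kb, and 62.0% had one within 10 kb.

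Genes nearest to a member often had a WT-only region of their own. Of the 1627, 48.7% had one within 1 kb of an end, against 29.0% of all autosomal protein-coding genes, and 36.5% had one elsewhere inside, against 14.4%. With WT peak centres within 100 bp of each other the first share was 31.5%, against 20.6% of all genes under that rule. Either was the case for 64.9% of nearest genes and 37.0% of all genes. Of the 115 genes with 3 or more members, 80.9% had one or the other. Neighbouring regions are not independent of each other, so these shares are descriptions with no test, and how much of the gap follows gene length or open chromatin was not measured.

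Members were denser close to genes. Per Mb of intergenic sequence that a centre could occupy, there were 9.61 members at 1 to 2 kb from the gene end, 7.22 at 2 to 5 kb, 6.48 at 5 to 10 kb, 5.63 at 10 to 15 kb and 5.40 at 15 to 20 kb, with 6.55 over all 334.5 Mb. The median distance was 6.86 kb. In the same 5 distance bins the median peak width was 510, 510, 514, 556 and 562 bp in replicate 1, and 400, 430, 436, 448 and 434 bp in replicate 2. It was higher farther out in replicate 1. For replicate 2 it was highest at 10 to 15 kb and lower again at 15 to 20 kb. The bins differed by less than the 2 libraries did within any bin. Strand was known for the nearest gene of 1713 members. Of these, 956 (55.8%, 53.4 to 58.2) lay upstream, beside 53.9% of the sequence, which is within that interval.

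**Figure D4:**
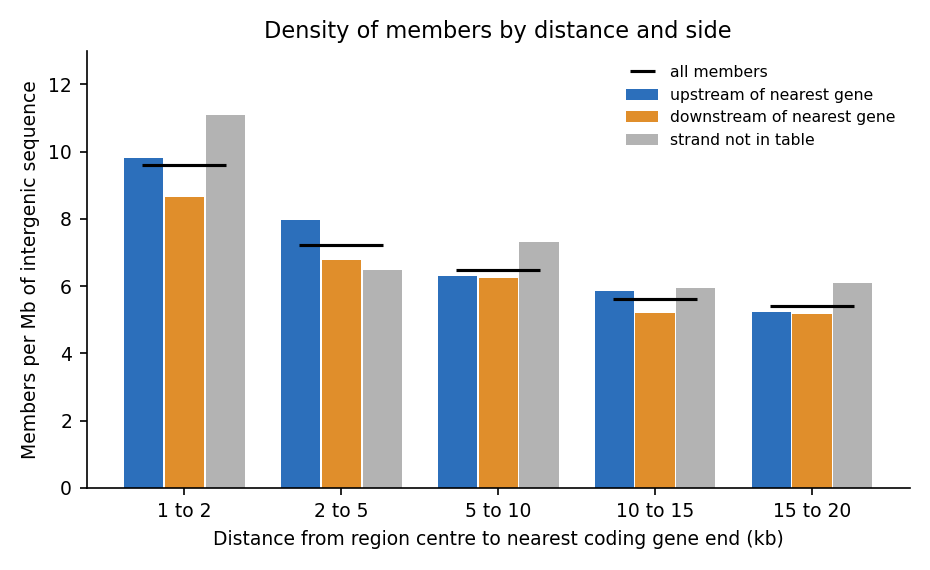
Members per Mb of available intergenic sequence (y axis) by distance of the region centre from the nearest coding gene end in kb (x axis), for centres upstream (blue) and downstream (orange) of the nearest gene and for genes whose strand the promoter table lacks (grey). Black lines give all members, from 9.61 per Mb at 1 to 2 kb to 5.40 per Mb at 15 to 20 kb.

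The density also differed with the gap between the flanking genes. In gaps of 2 to 10 kb there were 11.3 members per Mb of available sequence, in gaps of 10 to 40 kb 7.08, in gaps of 40 to 200 kb 6.60 and in gaps over 200 kb 3.81. Between 2 divergent genes, whose starts face each other, there were 7.31 per Mb, between genes read in the same direction 6.13 and between convergent genes 6.47. Members were found in 1531 of 15648 gaps (9.78%), at most 7 in a gap. The second flanking gene was also within 20 kb for 696 members (31.8%). Only 5 members reached with an edge into a protein-coding gene.

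Genes for transfer RNA (tRNA), the adaptors of translation that RNA polymerase III transcribes, were often inside members. Members met 66 of the 190 tRNA genes whose centre lay in the same location class (34.7%), against 8.49% of lncRNA, 7.02% of microRNA, 4.65% of snRNA, 3.49% of snoRNA genes and 0.645% of pseudogenes. Of the 190, a peak of WT replicate 1 met 76 and one of WT replicate 2 met 73, and no peak of either KO library met any. The KO lists were short, with 104 and 78 peaks in that class against 4161 and 2846 in WT. Whether their 0 differs from the WT counts beyond list length was not tested. KO replicate 1 met 1 tRNA gene inside a protein-coding gene. Counting WT-only regions of any location, 67 of the 190 tRNA genes (35.3%) and 17.5% of the lncRNA genes of the class were met, where a gene can also be met by a region of another class. At other locations, WT-only regions met 34 of 47 tRNA genes at gene ends (72.3%), 1 of 27 inside genes and 10 of 94 at 20 to 100 kb. The 47 members with a tRNA gene had peak widths from 240 to 2136 bp with a median of 510 bp in replicate 1, and from 242 to 1956 bp with a median of 580 bp in replicate 2. Replicate 2 was the wider in 23 of the 47 and in 674 of all 2192 members.

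A cluster of tRNA genes lay beside Osbp, where 1 member (chr19:12010974-12012384, 1344 and 1214 bp) met 4 of them. Members near Borcs6 (1284 and 1136 bp), Trim7 (994 and 972 bp), Trim55 (918 and 926 bp) and H4c8 (334 and 1144 bp) met 3 each. On chromosome 13, where tRNA genes are interspersed with the large histone gene cluster, 14 of the 47 members were found. In all, 13 members met at least 2 tRNA genes. These examples were chosen after their values were seen. tRNA genes exist in near-identical copies, and how the authors treated reads that match several places is not given in the sources used here. Its part in these counts was not tested.

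Of all members, 521 (23.8%) met some non-coding gene or pseudogene, and 208 (9.49%) had their centre within 1 kb of the end of a lncRNA gene. They are therefore not all distal to every start site. Inside members lay 8 microRNA genes: Mir142, Mir142b, Mir8096, Mir132, Mir212, Mirlet7i, Mir7671 and Mir760. The member with Mir132 and Mir212 had peaks of 1860 and 1396 bp, and that with Mirlet7i, of the let-7 family, 1752 and 1282 bp. The member that covers the start of Mir155hg, the host gene of the lymphocyte microRNA miR-155, had 1370 and 1142 bp and ended 0.076 kb short of Mir155. The member at the start of Mir22hg had 1756 and 1764 bp and lay 1.84 kb from Mir22. Rn7sk, which encodes the RNA that holds back the elongation kinase P-TEFb, lay in a member of 1434 and 1874 bp near Cilk1.

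The rule fixed that members have no KO peak, so the KO lists are compared over all their peaks. The same location class held 15.6% of the autosomal peaks of WT replicate 1 and 14.6% of those of WT replicate 2. It held 18.8% for KO replicate 1 and 18.7% for KO replicate 2. The WT mean was 15.1% ± 0.679 (SD, n = 2), and the KO mean was 18.8% ± 0.0919 (SD, n = 2). The difference, WT minus KO, was -3.66 percentage points, with a 2-sided exact permutation p of 0.333, the smallest that 2 against 2 allows. These shares depend on the other classes of the same lists. Gene ends held 26.6% and 31.9% of the WT peaks and 13.4% and 7.67% of the KO peaks, while 10.99% and 9.88% of the WT peaks and 14.7% and 15.3% of the KO peaks lay at 20 to 100 kb, and 4.79% and 4.39% against 9.60% and 14.1% farther out. With gene-end peaks left out of each list, the share at 1 to 20 kb was 21.2% and 21.5% in WT and 21.8% and 20.3% in KO, so that the groups overlapped and the difference turned to 0.351 points (exact permutation p = 1.0). The WT peaks also chose the members, and 4161 and 2846 WT peaks stand against 104 and 78 KO peaks.

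**Figure D5:**
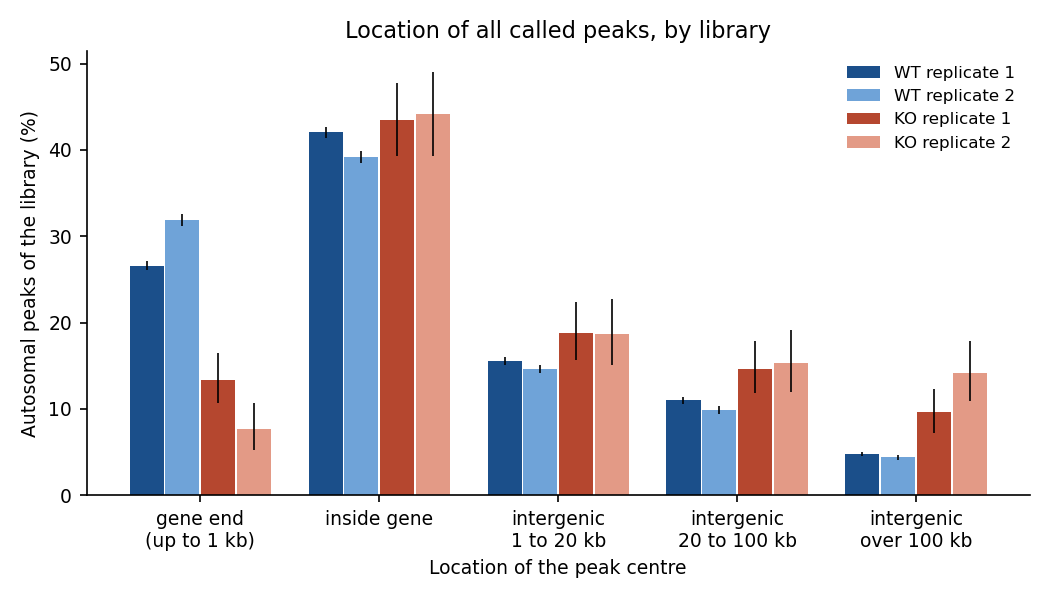
Percentage of the autosomal peaks of each library (y axis) by location of the peak centre (x axis), for the 2 WT (blue) and 2 KO (red) libraries, with exact 95% Clopper-Pearson intervals for counting error only. At 1 to 20 kb outside genes the WT libraries stand at 15.6% and 14.6% and the KO libraries at 18.8% and 18.7%.

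Before KO peaks were removed, 2296 reproducible WT regions lay in this location class, and 104 of them met a KO peak (4.53%, 3.72 to 5.46). KO replicate 1 met 77, KO replicate 2 met 59, and both met 32. At gene ends the share was 1.52%, inside genes 4.28%, at 20 to 100 kb 5.75% and farther out 9.09%. Of the members, which by the rule meet no KO peak, 7 had one within 1 kb and 109 (4.97%) within 10 kb, and the median distance was 628 kb. Few KO peaks were called, and these distances were compared with no other set of positions. In the same class, 55.7% of the peaks of WT replicate 1 (54.1 to 57.2) and 83.3% of those of WT replicate 2 (81.9 to 84.7) met a peak of the other WT list. At gene ends the shares were 75.9% and 88.7%. Peaks with no partner had a median width of 304 bp in replicate 1 and 242 bp in replicate 2, against 550 and 436 bp for those with one.

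The limits of the rule passed through a continuous spread of regions. At 1 kb, the regions just left out lay 990 bp from Gm8369 (376 and 378 bp) and 998 bp from Ccr8 (1324 and 1148 bp), and the first taken in lay 1004 bp from Plekhb1 (440 and 452 bp). At 20 kb, the last members lay 19972 bp from Ets2 (560 and 384 bp) and 19975 bp from Il10rb (240 and 514 bp), and the first beyond lay 20017 bp from Zbp1 (364 and 314 bp) and 20066 bp from Fer1l6 (718 and 896 bp).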

How the data were processed

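Smad4 ChIP-seq peak lists of 2 WT and 2 KO libraries were used as deposited by the authors. Each holds chromosome, start and end (unit: other, positions in bp) and no height, score or p-value. Trim Galore, Bowtie, HOMER 4.8.3 and the build mm10 are named per the submitters' processing notes, without their roles. Calling thresholds and the use of input are missing from the sources used here, and read depth is unknown.

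Starts were converted to 1-based positions. Gene bounds, non-coding genes, promoter windows and microRNAs came from RefSeq tables on GRCm38.p6. Of the coding genes, 121 below 3 Mb or off the chromosomes were left out (their positions are those of scaffolds), and 21779 were used. The gene table gives no strand, so strand came from the promoter table (17492 coding genes). Intervals are exact 95% Clopper-Pearson intervals for counting error only. The interval code was tested on simulated data. A motif search in members needed a genome and was replaced by RefSeq promoter windows lying wholly inside members, chosen after seeing the data.

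The members and the gene lists were chosen with earlier results of these data known. Named are the 20 broadest members, the genes with the most members (ties included), up to 4 genes per list with the broadest members, Il17a, Il17f, Cd4, Il6st, Egr1, Stat6 and Eomes, and the regions at the limits. Some genes that this rule takes are not reported here. Other genes, such as further genes of the TGF-β and SMAD list, were named after their values were seen. Alternatives are an overlap of 50%, centres within 100 bp, other distance limits, other gene sets, KO clearance, wider peaks and leaving out each list. Python 3.11.15, numpy 2.4.6, pandas 2.3.3, SciPy 1.17.1 and matplotlib 3.10.9 were used.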

Additional observations from a re-analysis of the deposited data

How the results depend on the processing

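The count of members was within 1.5 times of 2192 under 50% overlap, centres within 100 bp, KO clearance of 1 kb, both other distance limits, every RefSeq gene and X included. It was 905 in the wider part of the WT-only regions, where fewer regions enter, and between 2219 and 4051 with 1 list left out, highest without WT replicate 2. The median member width was 918 bp in the wider part and between 384 and 584 bp with 1 list left out. The share upstream was 50.4% with every RefSeq gene. The share of nearest genes with a WT-only region at an end was 40.5% under 50% overlap, 31.5% with centres within 100 bp, 34.2% with every RefSeq gene, 38.1% in the wider part and between 49.1% and 57.5% with 1 list left out. The share over all genes moved with it, to 24.6%, 20.6%, 16.3% and 18.4% under the first 4 of these. WT peaks in the location class that met the other list fell to 47.5% and 69.5% under 50% overlap and to 44.8% and 65.4% with centres within 100 bp, which are stricter rules. Of 192 alternatives for the 16 lists, 176 stayed within 1.5 times and 16 did not, including falls under every RefSeq gene, where a non-coding gene can take the place of the nearest coding gene (T cell identity 14 to 7, regulatory T cell 6 to 3, Th1 4 to 1, cell cycle 4 to 0). The share of all genes that were nearest to a member also changed under that rule, from 1627 of 20560 to 1828 of 46714. Leaving gene-end peaks out of each list, chosen after seeing the data, turned the difference in share of peaks to 0.351 points. With the replicate number as a block, that difference without this change was -3.66 points (exact sign-flip p = 0.5, the smallest that 2 pairs allow), and whether the numbers pair animals is not given in the sources used here. The share of windows with GGCGC was 41.6% when windows only met members by 1 bp, an alternative also chosen after seeing the data. Motif windows around region centres, one of them 250 bp to either side, were not run, since no genome was used here.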
